A study of Mus musculus with 4 samples.

Results

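The de novo lipogenesis enzymes are the proteins that build fatty acids from acetyl-CoA, and 10 of their genes were followed through nuclei of mouse thymic and epigonadal fat. They were chosen by symbol: Acly, Acss2, Me1, Acaca, Acacb, Fasn, Elovl6, Scd1, Scd2 and Pnpla3, 10 of the 32285 genes in the matrices. Pnpla3 encodes a lipid droplet protein and was included as a gene switched on with the pathway. RNA of single nuclei was captured in droplets (10x Genomics) in 1 library pooled from 6 thymi of 4-month males and in 1 library of epigonadal white adipose tissue of 4-month males, with the number of animals behind the fat library not given in the sources used here. Chromatin accessibility was measured in 1 library pooled from 16 thymi of 6-month females. All mice were wild type, on the C57/BL6 background, naïve and fed standard chow, and all nuclei came from the floating layer of digested tissue, which is where mature adipocytes collect. In the RNA libraries nuclei carry 5 labels of the authors, 2 of type I (Ad Ia, Ad Ib) and 3 of type II (Ad IIa, IIb and IIc), and in the chromatin library the labels are thyAD I, thyAD II and Immune. Ad I here means Ad Ia and Ad Ib summed. Each group was 1 library, so library and depot cannot be told apart, no difference has a replicate check and no p-value is given.

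Fat cells make fatty acids by turning citrate into cytosolic acetyl-CoA, carboxylating it to malonyl-CoA and condensing these units on fatty acid synthase with NADPH as reductant. The product, palmitate, is then lengthened and desaturated before it enters triglyceride. In white fat the pathway is known to respond to insulin and carbohydrate through the factors SREBP-1c and ChREBP. Nuclear RNA contains unspliced transcripts, so a gene with long introns offers more sites for priming in nuclei than a short gene does.

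The genes were divided by the length of the gene from first to last annotated base, since the annotation used here gives no exons. The 6 long genes spanned at least 40 kb: Acaca 272 kb, Me1 114.6 kb, Elovl6 106.1 kb, Acacb 104.4 kb, Acly 51.6 kb and Acss2 44.7 kb. The 4 short genes were Pnpla3 at 21.7 kb, Fasn at 19.2 kb, Scd1 at 13.3 kb and Scd2 at 13.2 kb. Scd1 (chr19:44394450-44407709) and Scd2 (chr19:44293676-44306864) are near neighbours with closely related coding sequences, so UMIs could be assigned to the wrong copy and their separate values are uncertain.

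The promoters of Fasn, Elovl6 and Pnpla3 are shown because differences between labels or libraries described below, in RNA or in chromatin at the start, turn on these genes. Each run is the 250 bases before the start site in RefSeq, build GRCm38.p6, on the gene's own strand: Fasn at chr11:120824548-120824797 on the minus strand, Elovl6 at chr3:129532136-129532385 and Pnpla3 at chr15:84167566-84167815, both on the plus strand. Capitals mark matches to CCAAT (the NF-Y box), TCACNCCAC (a sterol response element), CACGTG (an E-box) or GGGCGG (an Sp1 box) on either strand.
Fasn: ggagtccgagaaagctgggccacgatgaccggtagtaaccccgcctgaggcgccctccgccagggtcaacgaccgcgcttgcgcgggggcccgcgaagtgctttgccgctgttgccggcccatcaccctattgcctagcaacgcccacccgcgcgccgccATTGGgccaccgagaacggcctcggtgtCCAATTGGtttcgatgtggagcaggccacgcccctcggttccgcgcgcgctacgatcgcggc
Elovl6: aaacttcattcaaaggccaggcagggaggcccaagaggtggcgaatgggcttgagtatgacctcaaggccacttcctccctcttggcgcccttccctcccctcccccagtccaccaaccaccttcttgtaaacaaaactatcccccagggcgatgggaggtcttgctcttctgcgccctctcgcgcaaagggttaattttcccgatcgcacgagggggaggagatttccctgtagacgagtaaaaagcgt
Pnpla3: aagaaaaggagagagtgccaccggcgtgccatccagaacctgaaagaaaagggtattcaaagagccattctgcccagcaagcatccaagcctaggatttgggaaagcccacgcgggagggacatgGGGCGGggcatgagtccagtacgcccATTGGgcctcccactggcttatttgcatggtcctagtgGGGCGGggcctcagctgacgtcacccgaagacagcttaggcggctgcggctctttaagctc
Fasn had 3 CCAAT matches, the last 2 of which overlap. Pnpla3 had 1 CCAAT and 3 GGGCGG matches in the 300 bases searched, and Elovl6 had none of the 4 motifs there. The RefSeq table held promoters for 8 of the 10 genes, with 9 entries because Me1 has 2 starts. Scd1 and Scd2 are named only. CCAAT was found in 6 of the 9 windows and in 37.4% of all 32851 windows of the same length. Among the 6 were Acacb and the inner Me1 start, which lay 19197 and 8637 bases inside the annotated spans of their genes. GGGCGG was found in 4 of the 9 and in 35.7% of all, while TCACNCCAC and CACGTG were in 0 of the 9 and in 1.24% and 7.15% of all.

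The thymic RNA library held 22600 barcodes, of which 365 were labelled, and the epigonadal library 5043, of which 1564 were labelled. Levels are CPM, UMIs scaled to a total of 1000000 UMIs of nuclear-encoded genes in the same sum. Labelled sums held from 24582 to 401448 such UMIs in the thymus and from 120252 to 1237126 in the fat. The thymic Ad I nuclei were few and shallow: 35 Ad Ia and 49 Ad Ib nuclei with medians of 604 and 442 UMIs and of 15.5% and 18.2% mitochondrial UMIs. The epigonadal Ad I nuclei numbered 106 and 152, with medians of 1077 and 678.5 UMIs and of 3.83% and 5.33% mitochondrial UMIs. All intervals below are 95% intervals of counting error only. The libraries shared 147 barcodes, 0 of them among labelled nuclei. The part of depth and mitochondrial share in the differences between the libraries was not tested.

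The adipocyte label was checked against 10 defining markers (Adipoq, Plin1, Plin4, Cidec, Cfd, Retn, Lipe, Pparg, Cebpa and Fabp4). Their summed level ran from 6834 CPM in thymic Ad Ib to 64380 CPM in epigonadal Ad IIc. In thymic Ad IIa the adipocyte sum was 11591 CPM, above the 10340 CPM of thymic Ad Ia. Fabp4 (8860 CPM) and Pparg (2371 CPM), which endothelial cells are also known to express, made up most of it. The other 8 markers lay between 2.49 and 152 CPM, among them Adipoq, the adipocyte hormone, and Plin1, the lipid droplet coat, each at 9.96 CPM. In the same nuclei 8 endothelial markers summed to 8731 CPM. The same endothelial markers summed to 72.3 CPM in thymic Ad Ia and to 2563 CPM in Ad Ib. Thymic Ad IIa is called by its label below.

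Acetyl-CoA carboxylase, the step that commits carbon to fatty acids, had its highest levels in Ad Ia and Ad Ib of both libraries. Acaca, the cytosolic form, was at 2025 CPM in thymic Ad Ia and 1424 in Ib, against 72.2 in IIa, 37.0 in IIb, 73.7 in IIc and 282 in unlabelled thymic barcodes. In the fat it was at 1316 CPM in Ad Ia, 516 in Ib, 157 in IIa, 85.3 in IIb, 455 in IIc and 234 in unlabelled barcodes. Ad Ia and Ad Ib thus had the 2 highest values in both libraries. In the fat the intervals of Ad Ib (395 to 661 CPM) and IIc (399 to 517 CPM) overlapped, so their order is not resolved. Acacb, the form tied to the mitochondrial surface, was at 759 and 773 CPM in thymic Ad Ia and Ad Ib and between 73.7 and 222 CPM in the other thymic labels. In the fat Acacb was at 662 and 366 CPM in Ad Ia and Ad Ib and between 92.4 and 136 CPM in the others. Acacb had the same 2 labels on top in each library.

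Acly cleaves citrate to acetyl-CoA, Acss2 makes acetyl-CoA from acetate, and Me1 is the malic enzyme that yields NADPH. Acly ran from 34.9 CPM in Ad IIa to 145 CPM in Ia among thymic labels, and from 49.7 in IIb to 302 CPM in IIc among epigonadal labels. Acss2 was at 289 and 244 CPM in thymic Ad Ia and Ad Ib and at 55.3 CPM or less in the other thymic labels, while no epigonadal label passed 67.8 CPM. Me1 was at 253 CPM in thymic Ad Ia and 40.7 in Ib, and in the fat at 146 CPM in Ia, 125 in Ib and 496 in IIc. In the fat Ad IIc was highest for Acly and Me1 beyond counting error, while its interval overlapped that of Ad Ia for Acss2 (67.8 and 62.7 CPM). In the thymus the intervals of Ad Ia and Ad Ib overlapped for all 3 genes, with 4 and 3 UMIs of Acly, 8 and 6 of Acss2 and 7 and 1 of Me1, so their order is not resolved.

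Fasn, the synthase itself, had 0 UMIs in thymic Ad Ia, where 3 counts would be 108 CPM, and was at 40.7 CPM in Ib, 29.9 in IIa, 37.0 in IIb, 36.9 in IIc and 127 CPM in unlabelled thymic barcodes. In the fat it was at 223 CPM in Ad Ia, 249 in Ib, 236 in IIa, 156 in IIb, 1314 in IIc and 419 CPM in unlabelled barcodes. Every thymic value lay below every epigonadal one, on 0, 1, 12, 1 and 2 thymic UMIs in label order. Only thymic Ad IIa (15.4 to 52.2 CPM) had an interval below those of all epigonadal labels, of which IIb reached lowest (98.0 to 237). Elovl6, which lengthens palmitate, was at 181 CPM in thymic Ad Ia, 244 in Ib, 19.9 in IIa, 74.0 in IIb, 18.4 in IIc and 62.4 in unlabelled barcodes. In the fat Elovl6 was at 20.9, 16.6, 11.3, 0, 17.4 and 17.5 CPM in the same order, so that each thymic sum lay above the epigonadal one, in Ad IIc on 1 thymic UMI.

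Scd1, the main fat desaturase, was at 651 CPM in thymic Ad Ia, 325 in Ib, 74.7 in IIa, 111 in IIb, 18.4 in IIc and 294 in unlabelled barcodes. In the fat it was at 1017, 1181, 1172, 568, 5386 and 2146 CPM in that order. Scd2, the related desaturase, had 0 UMIs in thymic Ad Ia and Ad Ib, 37.4 CPM in thymic Ad IIa, and between 34.8 and 50.1 CPM in the epigonadal labels. Pnpla3 was at 506 CPM in thymic Ad Ia and 203 in Ad Ib, and had 0 UMIs in all 3 type II labels of the thymus. In the fat Pnpla3 was at 947 and 374 CPM in Ad Ia and Ad Ib and between 7.11 and 85.2 CPM in the other labels. Pnpla3 and Acaca thus had their highest values in Ad Ia of both libraries, and Scd1 and Fasn in epigonadal Ad IIc. In the thymus the Ad Ia and Ad Ib intervals overlapped for Pnpla3 (277 to 849 and 66.0 to 475 CPM). They also did for Acaca (1529 to 2629 and 992 to 1980 CPM), so this order is resolved only in the fat.

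**Figure D1:**
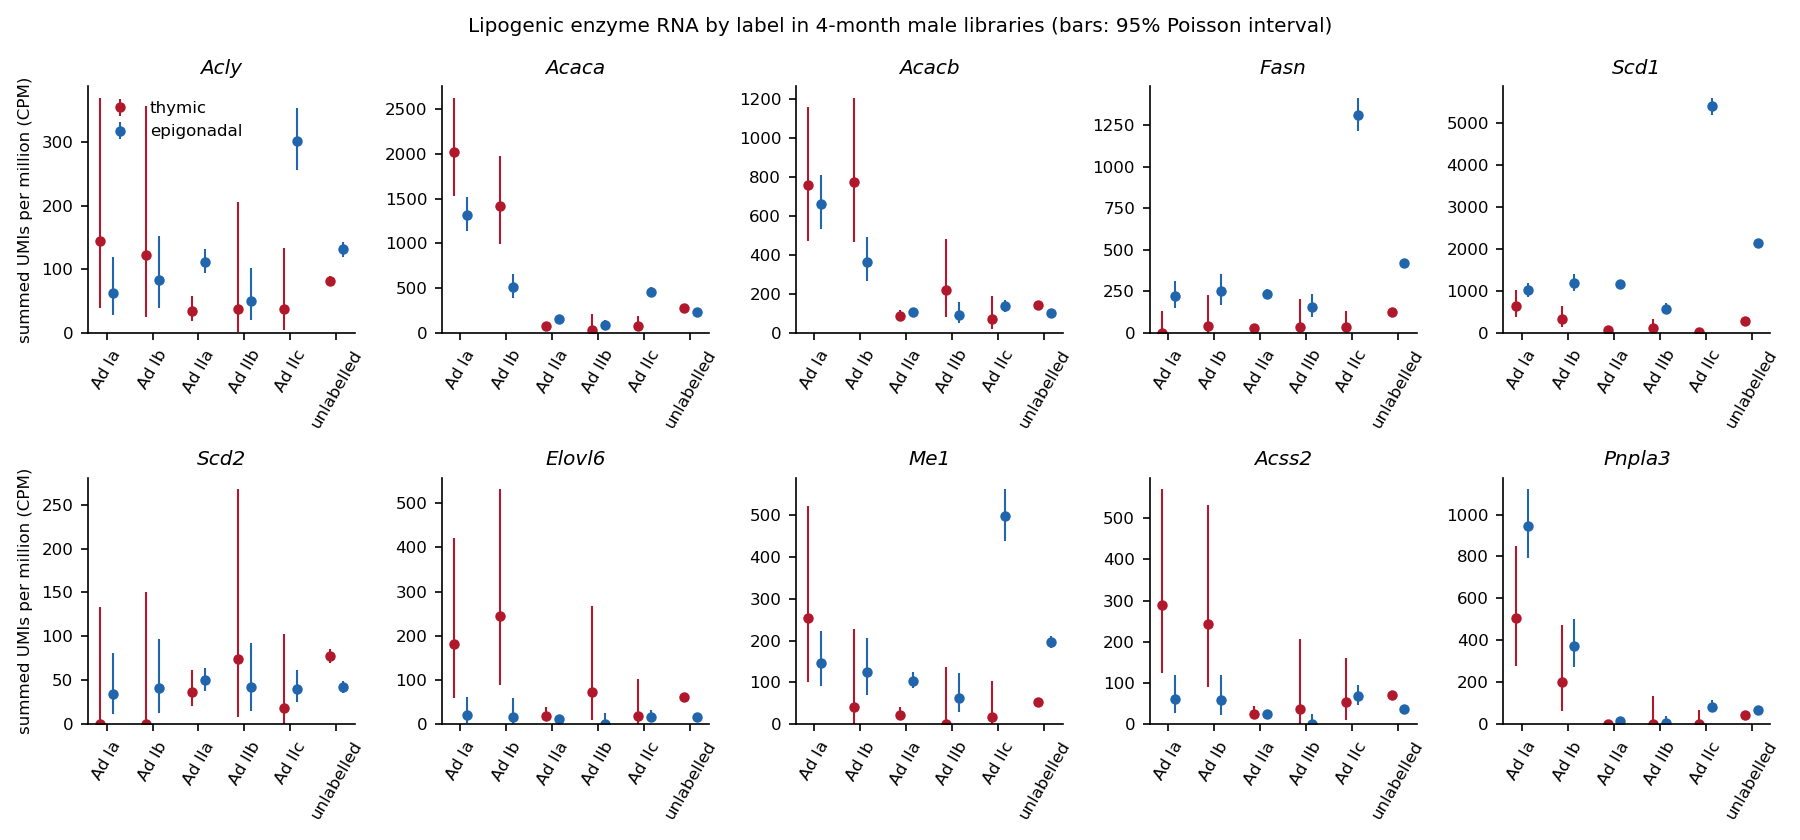
Level of each of the 10 genes by label: CPM on the vertical axis of each panel, labels and unlabelled barcodes on the horizontal axis, thymic library in red and epigonadal library in blue. Points are sums over the nuclei of 1 library with exact 95% Poisson intervals. Acaca has its highest value in Ad Ia of both libraries (2025 and 1316 CPM), with overlapping Ad Ia and Ad Ib intervals in the thymus. Fasn and Scd1 peak in epigonadal Ad IIc (1314 and 5386 CPM).

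Levels of different genes were set beside each other per kb of gene span, a scale that treats the whole transcript as a target for priming. On it epigonadal Ad I had Scd1 at 82.3 CPM per kb, Pnpla3 at 31.5, Fasn at 12.2, Acacb at 5.04, Acaca at 3.50, Scd2 at 2.87, Acly at 1.39, Acss2 at 1.36, Me1 at 1.19 and Elovl6 at 0.179. Thymic Ad I had Scd1 at 37.5 CPM per kb, Pnpla3 at 16.7, Acacb at 7.33, Acaca at 6.40, Acss2 at 6.00, Acly at 2.59, Elovl6 at 1.98, Me1 at 1.34, Fasn at 0.997 and Scd2 at 0. Scd1 and Pnpla3 led in both. Fasn came next in the fat, and in the thymus its value rests on 1 UMI and has no resolved place in the order.

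Within Ad I, 8 of the 10 genes had at least 20 UMIs over both libraries, and of these 2 had a counting interval above 0 and 3 one below 0 for thymic over epigonadal nuclei. Of all 3036 genes with as many UMIs 10.6% had an interval above 0 and 7.51% one below 0. The genes on the thymic side were Acaca and Acss2, with Elovl6 beside them on 16 UMIs, and those on the epigonadal side were Fasn, Scd1 and Pnpla3. Elovl6 had 11 thymic UMIs and 5 epigonadal ones, 211 against 18.95 CPM, a log2 ratio of 3.40 (1.83 to 5.35). Acss2 had 14 and 16 UMIs, 268 against 60.6 CPM, 4.44-fold higher in the thymic nuclei, a log2 ratio of 2.15 (1.0 to 3.27). Acaca had 91 and 251 UMIs, 1742 against 951 CPM, a log2 ratio of 0.88 (0.51 to 1.22). For these 3 genes the counting interval lay above 0, and in nuclei with at least 1000 UMIs, 9 of them thymic, Elovl6 was at 1.73. Acly, with 7 and 19 UMIs, had a log2 ratio of 0.96 (-0.60 to 2.21), and Acacb, with 40 and 139 UMIs, one of 0.55 (-0.01 to 1.06). Me1, with 8 and 36 UMIs, had a log2 ratio of 0.23 (-1.15 to 1.30), and under both other scalings tried its direction turned. The data for these 3 genes did not separate the libraries at this depth.

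Fasn had 1 thymic and 62 epigonadal UMIs in Ad I, 19.1 against 235 CPM, a log2 ratio of -3.04 (-8.94 to -1.09). Scd1 had 26 and 288 UMIs, 498 against 1092 CPM, a log2 ratio of -1.11 (-1.77 to -0.55). Pnpla3 had 19 and 181 UMIs, 364 against 686 CPM, a log2 ratio of -0.88 (-1.68 to -0.23). These 3 short genes were lower in the thymic nuclei with intervals below 0. Scd2 had 0 and 10 UMIs, and no fold is given, since 3 thymic counts would be 57.4 CPM against the 37.9 CPM measured in the fat. Of the 8 genes with 20 or more UMIs over both sides, 1 was more than 2-fold higher (Acss2) and 2 more than 2-fold lower (Fasn and Scd1). Scd1 lay within 2-fold in nuclei with at least 1000 UMIs (-0.95), with a pseudocount of 5 UMIs (-0.90) and with the unlabelled profile subtracted (-0.58). With that pseudocount Fasn, on its 1 thymic UMI, was at -1.14. Among all 3036 genes with as many UMIs, 12.1% were that much higher and 13.8% lower, and with TMM scaling 163 were higher and 648 lower in place of 368 and 420, with 1 and 3 of the 8 genes. The median log2 ratio of the 10 genes was 0.39, or 0.58 with genes at 0 set to 3 counts, against 0.08 for all genes. TMM and median-of-ratios scaling each lowered every log2 ratio of this comparison by 0.34.

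The Ad Ia and Ad Ib nuclei were also compared apart. There 12.4% and 19.8% of all genes with at least 20 UMIs were more than 2-fold higher and 16.3% and 14.6% lower. Of the 10 genes, 6 had as many UMIs in Ad Ia, with 0 that much higher and 1 lower. In Ad Ib 5 had as many, with 2 higher and 2 lower. Elovl6 and Acss2 had fewer than 20 UMIs in both labels and are outside these counts. Acaca had a log2 ratio of 0.63 (0.16 to 1.06) in Ad Ia and 1.47 in Ad Ib, and Elovl6 of 3.03 from 5 and 3 UMIs and of 3.67 from 6 and 2 UMIs. Acss2 was at 2.22 in Ad Ia, where 1 thymic nucleus gave 5 of the 8 thymic UMIs, and 2.08 in Ad Ib. Fasn had 0 thymic against 32 epigonadal UMIs in Ad Ia and 1 against 30 in Ad Ib. With 3 counts in place of 0, Fasn was 2.05-fold lower in Ad Ia. Scd1 was at -0.61 (-1.44 to 0.07) in Ad Ia and at -1.78 in Ad Ib, so its interval covered 0 in the first only. The direction of Acaca, Elovl6, Acss2, Fasn, Scd1 and Pnpla3 was the same in both labels. Beside these values, Malat1, a nuclear RNA, was at a log2 ratio of 0.50 in Ad I, Adipoq at -0.69 with an interval over 0, Plin1 at 0.52, the 10 adipocyte markers summed to 8691 against 14895 CPM, and T-cell markers to 421 against 56.9 CPM. The part of these in the results was not tested.

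Summed over genes, the long members had 171 thymic UMIs and 466 epigonadal ones in Ad I, a log2 ratio of 0.89 (0.63 to 1.15). The short members had 46 and 541 UMIs, a log2 ratio of -1.21 (-1.69 to -0.78). All 6 long genes had a ratio above 0 and all 4 short genes one below 0, with Me1 turning under both other scalings and Scd2 resting on 0 against 10 UMIs. The median was 0.92 for the long genes and -1.58 for the short genes, or -0.995 with Scd2 at 3 counts. For all genes with at least 20 UMIs the median was 0.13 at spans of 40 kb or more and 0.01 below it. In finer classes it was -0.47 under 10 kb, where none of the 10 genes lies, 0.20 from 10 to 40 kb, 0.18 from 40 to 100 kb and 0.08 at 100 kb or more.

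**Figure D2:**
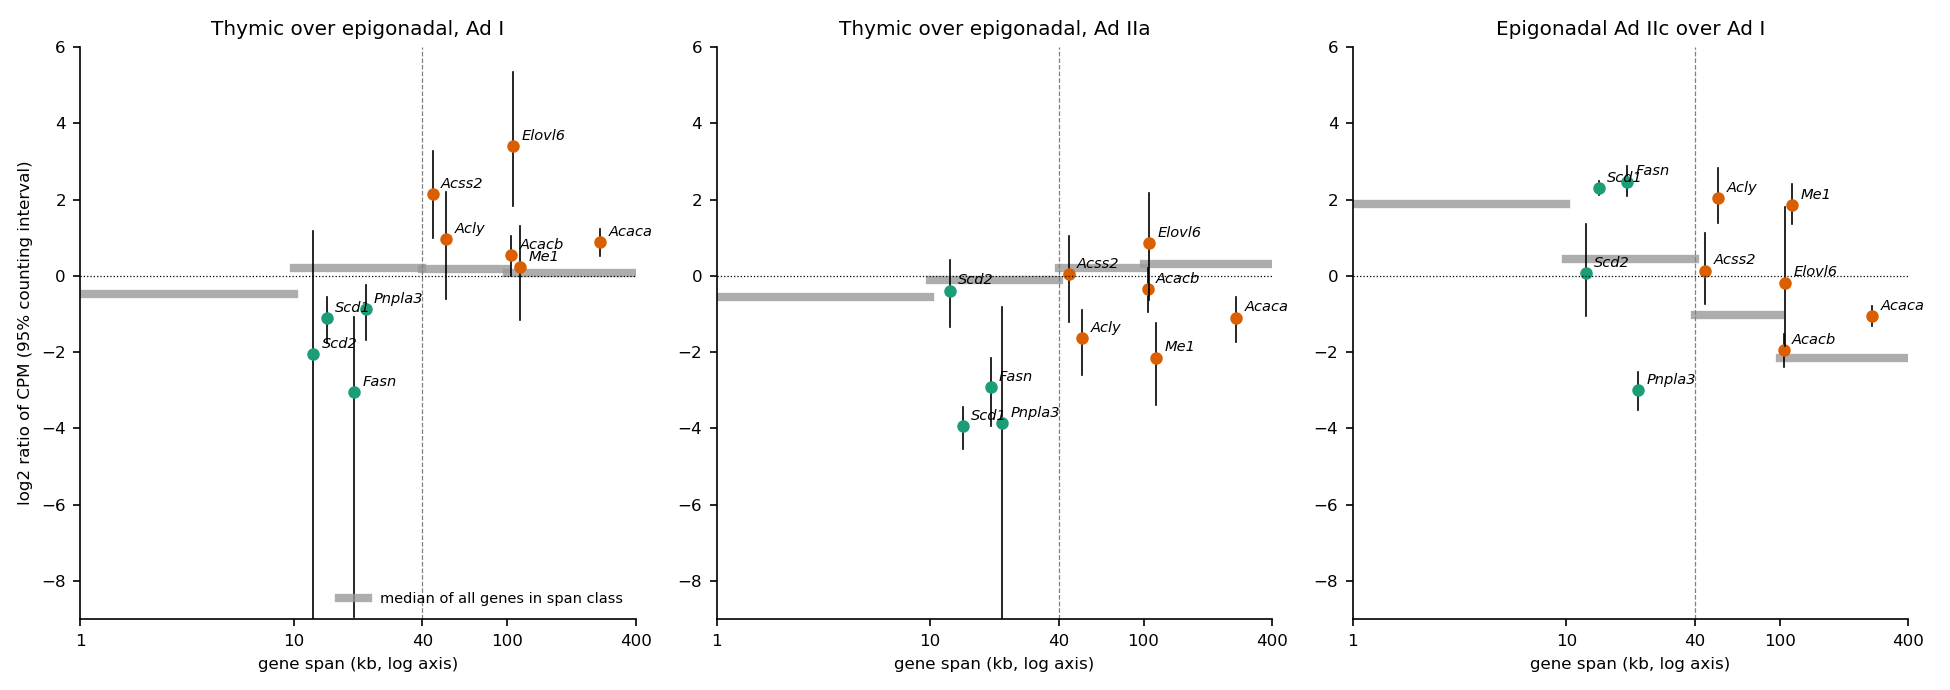
Log2 ratio of CPM against gene span in kb (log axis) for thymic over epigonadal Ad I, thymic over epigonadal Ad IIa and epigonadal Ad IIc over Ad I; points are the 10 genes with 95% counting intervals, cut at -9, orange for spans of at least 40 kb and green for shorter ones. Grey bars are medians of all genes in each span class and the dashed line marks 40 kb; in Ad I the orange points lie above 0 and the green ones below, and the grey bars lie at -0.47 under 10 kb and between 0.08 and 0.20 in the longer classes.

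The same counts can be given as the share of the pathway's UMIs that came from long genes, which in Ad I restates the contrast above. In Ad I this share was 78.8% (72.8 to 84.0, exact binomial) in the thymus and 46.3% (43.2 to 49.4) in the fat, whereas over all genes it was 55.3% and 52.9%. By label it was 75.9% in thymic Ad Ia, 83.3% in Ib, 64.6% in IIa and 56.0% in unlabelled thymic barcodes, where all genes had 53.7%, 57.1%, 62.0% and 49.0%. In thymic Ad IIa the interval of the pathway (56.7 to 72.0) thus covered the share of all genes. In the fat it was 50.5% in Ad Ia, 38.7% in Ib, 26.0% in IIa, 17.8% in IIc and 21.2% in unlabelled barcodes, where all genes had 55.9%, 49.2%, 51.9%, 22.5% and 42.7%. The share was higher in the thymus in every label compared. Over all genes the share of Ad IIc in the fat was well below that of the other sums.

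**Figure D3:**
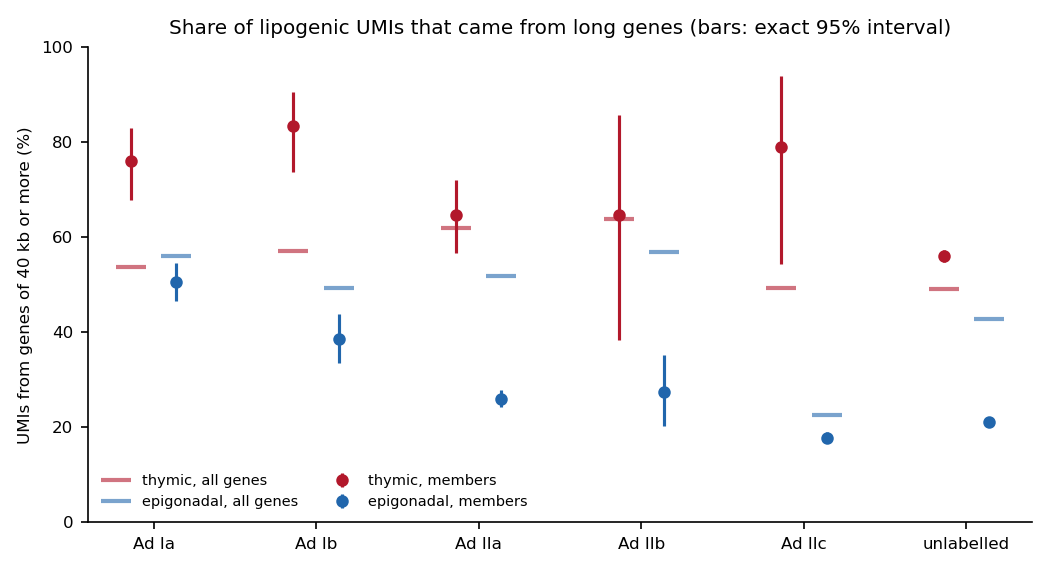
Percent of UMIs from genes of at least 40 kb by label and library: points are the 10 pathway genes with exact 95% intervals and dashes are all genes with a known span. The thymic points lie between 56.0% and 83.3% and the epigonadal points between 17.8% and 50.5%.

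Summed over all labelled nuclei, 1 of the 10 genes was more than 2-fold higher in the thymus and 5 were more than 2-fold lower, where 6.86% of all 9710 genes were higher and 18.8% lower. The higher gene was Elovl6, with 22 UMIs in the thymus, 28 in the fat and a log2 ratio of 1.67 (0.79 to 2.52). The lower genes were Scd1, Fasn, Me1, Acly and Pnpla3. Pnpla3 was at -1.66 and lay within 2-fold (-0.92) under at least 1 alternative. Scd1 had 60 thymic UMIs and 4598 epigonadal ones, 112 against 2131 CPM. Fasn had 16 and 1054 UMIs, 29.9 against 488 CPM, 15.8-fold lower. Me1 had 18 and 430 UMIs, a log2 ratio of -2.53 (-3.33 to -1.89), and Acly had 24 and 321, a log2 ratio of -1.70 (-2.39 to -1.13). The remaining 4 lay within 2-fold: Acss2 at 0.48 (-0.21 to 1.10), Acacb at -0.06 (-0.43 to 0.28), Scd2 at -0.42 (-1.26 to 0.29) and Acaca at -0.45 (-0.74 to -0.18). The sums hold different mixes of labels, since 658 of the 1564 epigonadal nuclei were Ad IIc and 231 of the 365 thymic nuclei were Ad IIa, and with equal weight per nucleus Acaca turned to 0.25. TMM scaling moved every log2 ratio of this comparison by -0.15, so that 432 of all genes were higher and 2141 lower in place of 666 and 1824, with 1 and 5 of the 10 genes as before.

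In Ad IIa, 6 of the 10 genes were more than 2-fold lower in the thymus and 0 were higher, where 13.3% of 8008 genes were lower and 3.77% higher. Scd1 had 30 UMIs in the thymus and 1450 in the fat, a log2 ratio of -3.95 (-4.54 to -3.45), and Fasn 12 and 292, a log2 ratio of -2.92 (-3.95 to -2.15). Me1 was at -2.15 (-3.38 to -1.25), Acly at -1.64 (-2.60 to -0.89) and Acaca at -1.10 (-1.73 to -0.55). Pnpla3 had 0 against 22 UMIs and was 2.38-fold lower with 3 counts in place of 0. Acss2 at 0.04 and Elovl6 at 0.85 had intervals over 0, as did Acacb and Scd2. Acaca (-0.93) and Pnpla3 (-0.81) each lay within 2-fold under at least 1 alternative. Here Acaca lay on the other side of 0 from Ad I. Adipoq was at 9.96 CPM in the thymic and 449 CPM in the epigonadal Ad IIa nuclei, and the part of this difference in adipocyte RNA was not tested.

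In Ad IIc the 2 libraries held unlike nuclei under 1 name. Thymic Ad IIc had 34 nuclei, 7814 CPM of endothelial and 25948 CPM of erythroid markers. Its adipocyte markers summed to 18631 CPM, of which Fabp4 gave 16309 CPM, with 0 UMIs of Plin1 and Plin4. Epigonadal Ad IIc had 658 nuclei and 64380 CPM of adipocyte markers. Adipoq was at 55.3 CPM in thymic and 2513 CPM in epigonadal Ad IIc. Scd1 had 1 thymic against 2780 epigonadal UMIs, Fasn 2 against 678, Me1 1 against 256 and Acaca 4 against 235. Of 9 genes with at least 20 UMIs 6 were more than 2-fold lower and 0 higher, beside 33.7% and 27.6% of 4154 genes. No gene had more than 4 thymic UMIs, so the minimum of 20 was reached through the epigonadal side. The 6 include Pnpla3, with 0 thymic and 44 epigonadal UMIs. For Pnpla3, 3 thymic counts would be 55.3 CPM against 85.2 CPM in the fat, so a 2-fold difference is not resolved. In Ad IIb the thymic sum of 16 nuclei had 17 UMIs of the 10 genes in all, and no ratio is described there.

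Within the thymic library the summed level of the pathway was highest in Ad I. The 10 genes summed to 4809 CPM in Ad Ia and 3417 in Ib, against 401 CPM in IIa, 629 in IIb and 350 in IIc. Acaca was at 72.2 CPM in Ad IIa against 1742 in Ad I, a log2 ratio of -4.58 (-5.25 to -3.97), Acacb at -3.17 (-3.88 to -2.48) and Scd1 at -2.74 (-3.54 to -1.92). Acss2, Elovl6 and Me1 were at -3.41, -3.38 and -2.78. Pnpla3 had 0 against 19 UMIs and was 48.7-fold lower with 3 counts in place of 0. Fasn, with 12 and 1 UMIs, had a log2 ratio of 0.12 (-2.11 to 6.06). Scd2, with 15 and 0 UMIs, is given no fold, since 3 counts in Ad I would be 57.4 CPM against the 37.4 CPM of Ad IIa. The data gave no direction for these 2 genes at this depth, and their sign turned between alternatives. Of the 5 genes with at least 20 UMIs all 5 were more than 2-fold lower, where 15.2% of 3989 genes were lower and 29.9% higher. With TMM scaling, which raised every log2 ratio here by 0.41, 379 of these were lower and 1632 higher in place of 605 and 1194, and 5 of the 5 stayed lower. Endothelial markers summed to 8731 CPM in Ad IIa and 1244 in Ad I.

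The epigonadal library divided the pathway in another way. Its genes summed to 4492 CPM in Ad Ia, 3010 in Ib, 1994 in IIa, 1066 in IIb and 8300 in IIc. In Ad IIc over Ad I, Fasn had 678 and 62 UMIs, 1314 against 235 CPM, a log2 ratio of 2.47 (2.11 to 2.88), and Scd1 one of 2.30 (2.13 to 2.48). Acly was at 2.04 (1.38 to 2.84) and Me1 at 1.84 (1.35 to 2.41). These 4 genes, for fatty acid synthase, desaturation, citrate cleavage and NADPH supply, were higher in Ad IIc, without the carboxylase step. Both acetyl-CoA carboxylases and Pnpla3 were lower in Ad IIc: Acaca at -1.06 (-1.33 to -0.80), Acacb at -1.95 (-2.39 to -1.53) and Pnpla3, with 44 and 181 UMIs, at -3.00 (-3.52 to -2.53). Scd2, Elovl6 and Acss2 had intervals over 0. Of the 9 genes with at least 20 UMIs 4 were more than 2-fold higher and 3 lower, where 28% of 5700 genes were higher and 36.2% lower. With TMM scaling, which raised every log2 ratio here by 0.60, 2194 of all genes were higher and 1478 lower in place of 1594 and 2062, and 4 and 2 of the 9.

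Gene length moved with this comparison across the whole matrix. The median of all genes was 1.88 under 10 kb, 0.44 from 10 to 40 kb, -1.03 from 40 to 100 kb and -2.17 at 100 kb or more. Set against the median of their own length class, an alternative chosen after seeing the data, Me1 stood 4.01 above it, Acly 3.07, Fasn 2.03, Elovl6 1.99, Scd1 1.86, Acss2 1.17, Acaca 1.10 and Acacb 0.21, while Scd2 stood 0.37 below it and Pnpla3 3.44 below it. On that scale the carboxylases were no longer lower in Ad IIc, and Pnpla3 was lower on both. Malat1 was at 1738 CPM in Ad IIc and 41039 CPM in Ad I, and ribosomal protein genes summed to 76407 and 18859 CPM. The part of these in the result was not tested.

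Epigonadal Ad IIa over Ad I, which shares the Ad I sums with the comparison above, gave 0 of 9 genes more than 2-fold higher and 4 lower, beside 20.6% and 13.7% of 8103 genes. Pnpla3, with 22 and 181 UMIs, was at -5.24 (-5.98 to -4.63), Acaca at -2.60 (-2.88 to -2.32), Acacb at -2.28 (-2.64 to -1.93) and Acss2 at -1.30 (-2.19 to -0.31). Fasn was at 0.00 (-0.39 to 0.43) and Scd1 at 0.10 (-0.08 to 0.29). Fasn and Scd1 thus had intervals over 0 here. Endothelial markers summed to 6484 CPM in epigonadal Ad IIa and 1038 CPM in Ad I, and adipocyte markers to 22852 and 14895 CPM, and their part in these ratios was not tested. Epigonadal Ad Ia over Ad Ib had 2 of 6 genes more than 2-fold higher, Acaca at 1.34 (0.93 to 1.79) and Pnpla3 at 1.33 (0.84 to 1.86), beside 7.98% of all genes higher and 6.3% lower.

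Barcodes without a label hold free RNA together with nuclei that were not labelled, so they are a reference for each library and not a measure of free RNA alone. In the thymus 22235 such barcodes had a median of 308 UMIs and 69.3% mitochondrial UMIs, and in the fat 3479 had medians of 794 UMIs and 10.9%. At least 3 adipocyte markers were found in 610 of the thymic and 2510 of the epigonadal ones, so the epigonadal sum is mostly from barcodes with adipocyte RNA. Thymic Ad I stood above its unlabelled barcodes for 6 genes by more than 2-fold, led by Pnpla3 at a log2 ratio of 3.02 (2.23 to 3.67), Acaca at 2.63 (2.30 to 2.93) and Acacb at 2.44 (1.92 to 2.88), with Acss2, Elovl6 and Me1 at 1.96, 1.82 and 1.58. Among all genes 27.8% were that much higher and 15.6% that much lower. Fasn was below them in thymic Ad I, with 1 UMI against 584, a log2 ratio of -2.14 (-8.03 to -0.24). Scd2 had 0 UMIs against 356 and was 1.35-fold lower with 3 counts in place of 0. Fasn in thymic Ad I was thus not seen above this reference, and the origin of its 1 UMI was not tested. Epigonadal Ad I also lay below its unlabelled barcodes in Fasn, 235 against 419 CPM, a log2 ratio of -0.82 (-1.22 to -0.47), in Scd1, 1092 against 2146 CPM, a ratio of -0.97 (-1.15 to -0.81), and in Acly (-0.83) and Me1 (-0.51). Against the unlabelled epigonadal barcodes with fewer than 3 markers, at 55.3 CPM of Fasn and 352 CPM of Scd1, its levels were higher. In the fat Ad I stood more than 2-fold above all unlabelled barcodes for Pnpla3 (3.29), Acacb (2.39) and Acaca (2.03), beside 11.9% of all genes.

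Over all labels together the 10 genes were a median of 0.61 log2 units below the unlabelled barcodes in the thymus, with 3 genes more than 2-fold lower (Fasn, Scd1 and Scd2) beside 20.9% of all genes. Scd2 lay within 2-fold (-0.81) under at least 1 alternative. Acly (-1.18), Me1 (-1.25), Elovl6 (-1.26) and Pnpla3 (-1.76) each passed 2-fold lower under at least 1. Under others Elovl6 reached 0.15 and Pnpla3 0.47, so their direction was not settled, while Acly and Me1 stayed below 0. In the fat the median was 0.15 above the unlabelled barcodes, with 0 genes past 2-fold in either direction beside 4.19% higher and 12.9% lower. The unlabelled barcodes themselves differed between the libraries. There Elovl6 with 287 thymic and 66 epigonadal UMIs was at 1.83 (1.45 to 2.24), Fasn with 584 and 1583 at -1.72 (-1.86 to -1.59), and Scd1 with 1355 and 8107 at -2.87 (-2.95 to -2.78). Of the 10 genes 1 was more than 2-fold higher there and 3 lower, beside 9.67% and 22% of 13177 genes. Elovl6 was thus higher and Fasn and Scd1 lower in the unlabelled thymic barcodes too. Acaca at 0.27 (0.15 to 0.40), Acacb at 0.50 and Scd2 at 0.87 (0.60 to 1.15) lay on the other side of 0 from all labelled nuclei. Over all labelled nuclei the intervals of Acacb and Scd2 covered 0, and Acaca turned to 0.25 with equal weight per nucleus. The opposite direction is thus not resolved. T-cell markers summed to 4028 CPM in the unlabelled thymic and 255 CPM in the unlabelled epigonadal barcodes, and their part in these ratios was not tested.

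Some unlabelled thymic barcodes carried pathway RNA in quantity. Of 22235, 70 had at least 5 UMIs of the 10 genes, and 34 of these had at least 3 adipocyte markers. In the fat 1021 of 3479 unlabelled barcodes had as many, 1002 of them with 3 adipocyte markers or more. The 610 unlabelled thymic barcodes with 3 or more adipocyte markers had Fasn at 301 CPM and Acaca at 791 CPM, against 113 and 241 CPM in those with fewer, and Elovl6 at 66.7 against 62.0 CPM. Fasn was thus higher in these unlabelled thymic barcodes than in any labelled thymic sum. In the fat 2510 unlabelled barcodes with 3 or more markers had Fasn at 540 against 55.3 CPM and Scd1 at 2740 against 352 CPM.

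Counted over nuclei, a Fasn UMI was found in 0 of 35 thymic Ad Ia nuclei, where 3 nuclei would be a share of 8.57%, in 1 of 49 Ad Ib nuclei and in 10 of 231 Ad IIa nuclei (4.33%), and in 531 of 22235 unlabelled thymic barcodes (2.39%). At the median of 604 UMIs in Ad Ia this limits nuclei with a Fasn UMI, not nuclei that express the gene. In the fat one was found in 25 of 106 Ad Ia nuclei (23.6%), 23 of 152 Ad Ib (15.1%), 184 of 590 Ad IIa (31.2%) and 372 of 658 Ad IIc nuclei (56.5%), with median depths of 1077, 678.5, 1916 and 714 UMIs, against 1023 of 3479 unlabelled barcodes (29.4%). Thinned to 500 UMIs each, the epigonadal shares were 11.3%, 13.2%, 8.64% and 42.9%, with 18.8% in unlabelled barcodes, and the thymic counts 0 of 26, 1 of 16 and 4 of 229, with 9 Ad Ia, 33 Ad Ib and 2 Ad IIa nuclei too shallow to enter. The unlabelled thymic barcodes, with a median of 69.3% mitochondrial UMIs, held fewer UMIs of nuclear-encoded genes at a given depth than the thymic nuclei, at 13.3% to 18.2%, so these shares are not set against each other. In the fat the shares of Ad Ia and Ad Ib, and the thinned share of Ad IIa, lay below that of unlabelled barcodes. Most of those barcodes carry adipocyte markers. For Ad Ia both ways, and for Ad Ib after thinning, the counting interval overlapped that of unlabelled barcodes. Ad IIc lay above unlabelled barcodes both ways.

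Acaca was detected in 22 of 35 thymic Ad Ia nuclei (62.9%) and in 69 of 106 epigonadal ones (65.1%), and after thinning in 42.3% and 40.6%. In Ad Ib the shares were 42.9% and 32.2%, and in unlabelled barcodes 4.65% and 19.0%. The Ad Ia shares of the libraries did not differ beyond counting error. Scd1 was detected in 7 of 35 thymic Ad Ia nuclei (20%, or 19.2% thinned) and in 52 of 106 epigonadal ones (49.1%, or 24.5% thinned). In unlabelled barcodes its shares were 5.38% and 64.2%, or 5.11% and 52.0% thinned. In epigonadal Ad IIc it was detected in 599 of 658 nuclei (91.0%; 84.7% thinned). At least 1 of the 10 genes was detected in 85.7% of thymic Ad Ia nuclei and in 95.3% of epigonadal ones. After thinning these shares were 76.9% and 78.3%, and those of unlabelled barcodes 23.0% and 65.7%. After thinning the counting intervals of the libraries overlapped for both shares. Thinning was to total UMIs, mitochondrial ones included, so nuclei with a larger mitochondrial share kept fewer UMIs of other genes. The unlabelled thymic shares are thus not set against those of thymic nuclei. Only 3877 of the 22235 unlabelled thymic barcodes were deep enough to be thinned. One nucleus gave 23 of the 133 pathway UMIs of thymic Ad Ia (17.3%).

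Genes around the pathway were read from lists by role, each over genes with at least 20 UMIs on both sides together. Over all labelled nuclei, 6 of 9 genes of acetyl-CoA and citrate supply and 7 of 7 of NADPH supply were more than 2-fold lower in the thymus, with 0 higher, beside 18.8% of all genes lower and 6.86% higher. The share lower was 40.9% for genes under 10 kb, 25.2% for those under 40 kb and 8.75% for longer ones. Mpc1, a subunit of the mitochondrial pyruvate carrier, was at -1.45 (-1.90 to -1.05) and Mdh1, the cytosolic malate dehydrogenase, at -3.19. Tkt and Taldo1 of the pentose phosphate pathway were at -1.81 and -2.23. In Ad I the same lists gave 2 of 5 higher and 0 lower, and 0 of 3 in either direction, beside 12.1% of all genes higher and 13.8% lower, with Mpc1 at 0.52 (-0.64 to 1.46) and Tkt at 0.70. In epigonadal Ad IIc over Ad I they gave 8 of 8 and 6 of 7 higher, with Mdh1 at 2.69, Mpc1 at 2.02 and Tkt at 1.56. There 28% of all genes were as much higher, 48.5% of those under 40 kb and 76.3% of those under 10 kb, and the part of length in these counts was not tested.

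Of the regulators, 6 of 12 were more than 2-fold lower over all labelled nuclei and 0 higher, in Ad I 1 of 4 higher and 0 lower, and in epigonadal Ad IIc over Ad I 4 of 10 higher and 1 lower. The shares of all genes were 6.86% higher and 18.8% lower, 12.1% and 13.8%, and 28% and 36.2% in the same order. Thrsp, a lipogenic protein induced by thyroid hormone, had 87 and 1709 UMIs over all labelled nuclei, a log2 ratio of -2.28, 29 and 108 in Ad I, a log2 ratio of 0.46, and was at 2.25 in epigonadal Ad IIc over Ad I. Srebf1, which encodes SREBP-1, was at -1.02, 0.59 and 0.25 in the same order. Among elongation and desaturation partners 0 of 7 were higher and 3 lower over all labelled nuclei, and in Ad I 1 of 3 was higher, beside the same shares of all genes. Elovl5, which lengthens polyunsaturated fatty acids, had 17 and 18 UMIs in Ad I, a log2 ratio of 2.26 (1.21 to 3.29), and was at 0.80 over all labelled nuclei. Elovl5 was thus higher in thymic Ad I, as Elovl6 was, and Hacd2, the dehydratase of the same cycle, was at 0.18 in Ad I and -1.05 over all labelled nuclei.

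Genes that control acetyl-CoA carboxylase gave 0 of 7 higher and 1 lower over all labelled nuclei, with Prkaa1, a catalytic subunit of AMP kinase, at -0.43. Mitochondrial fatty acid synthesis gave 3 of 7 lower, with its carrier protein Ndufab1 at -2.18. Fatty acid activation gave 0 of 5 past 2-fold in either direction, with Acsl1, an acyl-CoA synthetase, at -0.56 over all labelled nuclei and at 0.83 (0.49 to 1.15) in Ad I from 103 and 294 UMIs, and Acsl4 at 0.32 over all labelled nuclei. Of all genes 18.8% were that much lower over all labelled nuclei, so the lists ranged from 0 of 5 in activation to 7 of 7 in NADPH supply around that background.

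The likeness of other genes was described by Pearson's r of log2(CPM + 10) over 12 sums, the 5 labels and the unlabelled barcodes of each library, among 7092 genes. These sums share libraries and differ in depth, so r is a description. Nearest to Fasn were Npc2 (0.953), Coasy (0.936) and Map1lc3a (0.931), and nearest to Scd1 were Aldh6a1 (0.958), Fxyd1 (0.949) and Plin4 (0.939). Nearest to Acaca were Ankef1 (0.982), Pon3 (0.981) and Ppp1r9a (0.979), and nearest to Acly were Cox19 (0.953), Gstp1 (0.933) and Acp5 (0.919). Between the 10 genes the closest pairs were Acaca with Pnpla3 (0.946), Scd1 with Me1 (0.864) and Elovl6 with Acss2 (0.863), while the most negative pairs were Scd2 with Acss2 (-0.708), Acaca with Scd2 (-0.630), Scd2 with Elovl6 (-0.625) and Fasn with Elovl6 (-0.605). Each of these negative pairs holds Scd2 or Fasn. In thymic Ad Ia and Ad Ib Scd2 had 0 UMIs and Fasn 0 and 1, where 3 counts would be 108 and 122 CPM. The r of these pairs thus rests in part on counts under that limit. None of the 10 genes was among the 3 nearest of Fasn, Scd1, Acaca or Acly.

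Chromatin was read in the 317 thymic nuclei of 6-month females whose labels were at hand, with 4397902 fragments. There were 146 thyAD I nuclei with 1646902 fragments, 140 thyAD II nuclei with 2189613 and 31 Immune nuclei with 561387. Levels are given as fragment CPM, fragments scaled to a total of 1000000 fragments of the label, or at starts as insertion CPM, transposase insertions on the same total. The authors' clusters, made from RNA and chromatin jointly, each fall inside 1 label, so the values describe these labels and test nothing between them. In Immune nuclei 9 of 10 T-cell markers had at least 20 fragments and were more than 2-fold higher than in thyAD I. Among all 20090 genes 6.4% were that much higher. Since the clusters were made with this chromatin, the count describes the Immune label and does not check it. Over gene bodies with 2 kb beyond each end, 0 of the 10 genes differed by more than 2-fold between thyAD II and thyAD I, where 2.53% of 23429 genes were higher and 1.45% lower. Acaca was hit by 925 fragments from thyAD II and 761 from thyAD I, 422 against 462 fragment CPM, and Fasn 368 and 278, 168 against 169 fragment CPM, a log2 ratio of -0.01. The labels thus differed in Fasn by less than counting error.

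Acacb was lower in thyAD II, with 185 against 265 fragment CPM and a log2 ratio of -0.51 (-0.71 to -0.32), and so were Scd1 at -0.48 (-0.83 to -0.14), Elovl6 at -0.47 (-0.74 to -0.20) and Acly at -0.25 (-0.50 to -0.01). Pnpla3 was at 0.27 (-0.003 to 0.54), and the remaining genes lay between -0.13 and 0.01. The median of the 10 genes was -0.11, against 0.02 for all genes, with -0.19 for the 6 long genes and 0.00 for the 4 short ones. In Immune over thyAD I, which shares the thyAD I fragments with the comparison above, the median was -0.43 with 0 of 10 past 2-fold, beside 6.4% of 20090 genes higher and 7.42% lower, and Acacb was at -0.96, Pnpla3 at -0.79, Scd1 at -0.72, Me1 at -0.65 and Acaca at -0.57.

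The labels thyAD I and thyAD II were each made of 2 joint clusters, and some of the 10 genes differed between these beyond counting error. In cluster 3 over cluster 1, both thyAD I, Acss2 was at 0.77, Fasn at 0.50, Acly at 0.45 and Acaca at 0.42, with 0 of 10 past 2-fold beside 2.11% of genes higher and 3.91% lower. In cluster 4 over cluster 0, both thyAD II, Acly was at -0.90, Fasn at -0.71, Acaca at -0.57, Scd1 at -0.56 and Pnpla3 at -0.49, with 0 of 10 past 2-fold beside 1.63% and 1.77%. Fasn and Acly thus had ratios further from 0 between clusters of 1 label than between the labels. In cluster 4 over cluster 0 the intervals of Fasn (-1.06 to -0.39) and Acly (-1.30 to -0.53) lay beyond those between labels. In cluster 3 over cluster 1 the sizes overlapped within counting error.

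**Figure D4:**
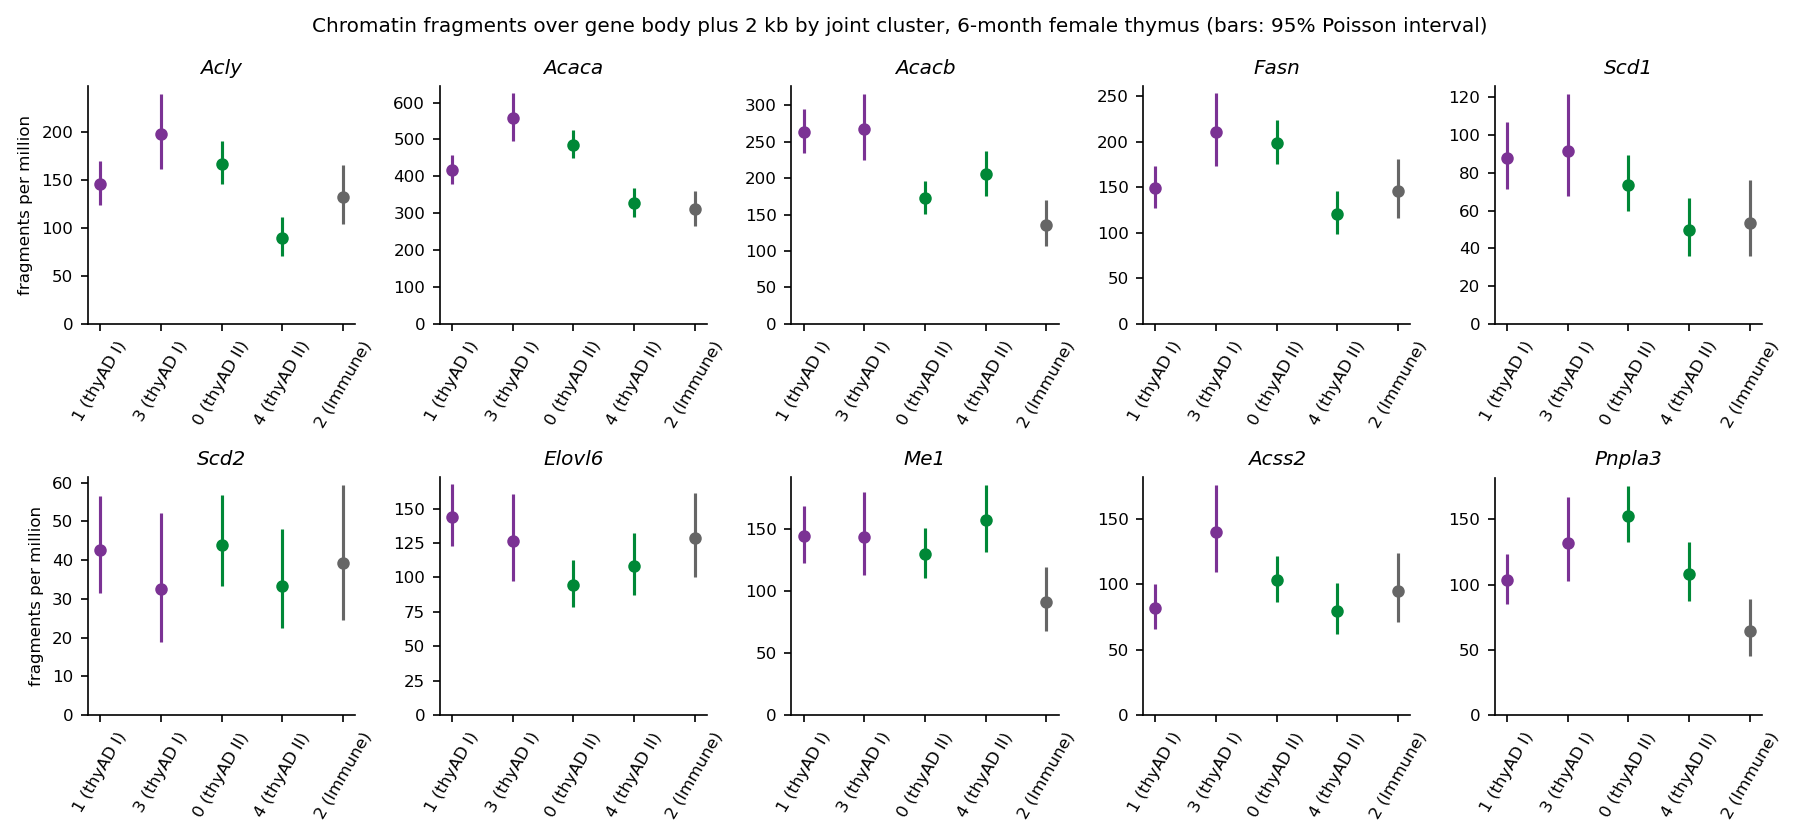
Fragment CPM over the gene body and 2 kb beyond each end, for each of the 10 genes, in the 5 joint clusters of the 6-month thymic library, with 95% counting intervals. Clusters 1 and 3 are thyAD I, clusters 0 and 4 thyAD II and cluster 2 Immune; Fasn and Acly are higher in cluster 3 than in 1 and lower in cluster 4 than in 0.

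At gene starts Elovl6 stood apart. Within 1 kb of its start there were 94 insertions in thyAD I, 41 in thyAD II and 18 in Immune nuclei, 57.1, 18.7 and 32.1 insertion CPM. The log2 ratio of thyAD II over thyAD I was -1.60 (-2.17 to -1.06), and by cluster the level was 64.0 and 42.1 insertion CPM in clusters 1 and 3 against 21.2 and 15.0 in clusters 0 and 4. Among 15151 starts with at least 20 insertions 2.14% were more than 2-fold lower and 4.65% higher, and Elovl6 was the 1 gene of the pathway with as many insertions that was past 2-fold. Its promoter, printed above, held none of the 4 motifs. In the 200 bases before the start the level was 21.3 insertion CPM in thyAD I and 5.02 in thyAD II, while all starts together had 7.45 and 6.91. From 400 to 200 bases before the start it was 17.0 and 2.74 insertion CPM, and in the 200 bases after it 10.9 and 4.57. The level was higher in thyAD I in each of these windows. At 1400 to 1600 bases after the start Elovl6 had 7.29 and 8.68 insertion CPM.

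The other starts differed less. Fasn had 219 insertions in thyAD I and 308 in thyAD II, 133 against 141 insertion CPM, a log2 ratio of 0.08, with 109 and 184 insertion CPM in clusters 1 and 3. Acss2 was at 130 against 111 insertion CPM, Acly at 115 against 93.6, Pnpla3 at 99.6 against 84.5 and Me1 at 44.3 against 41.6. These 5 starts lay within 2-fold between the labels. The RefSeq starts of Acaca and Acacb lay 65803 and 19197 bases inside their annotated spans and had little accessibility. At the first base of the span Acaca had 35.2 and 43.8 insertion CPM in thyAD I and thyAD II, and Acacb 51.0 and 36.1, a log2 ratio of -0.50 (-0.96 to -0.04).

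**Figure D5:**
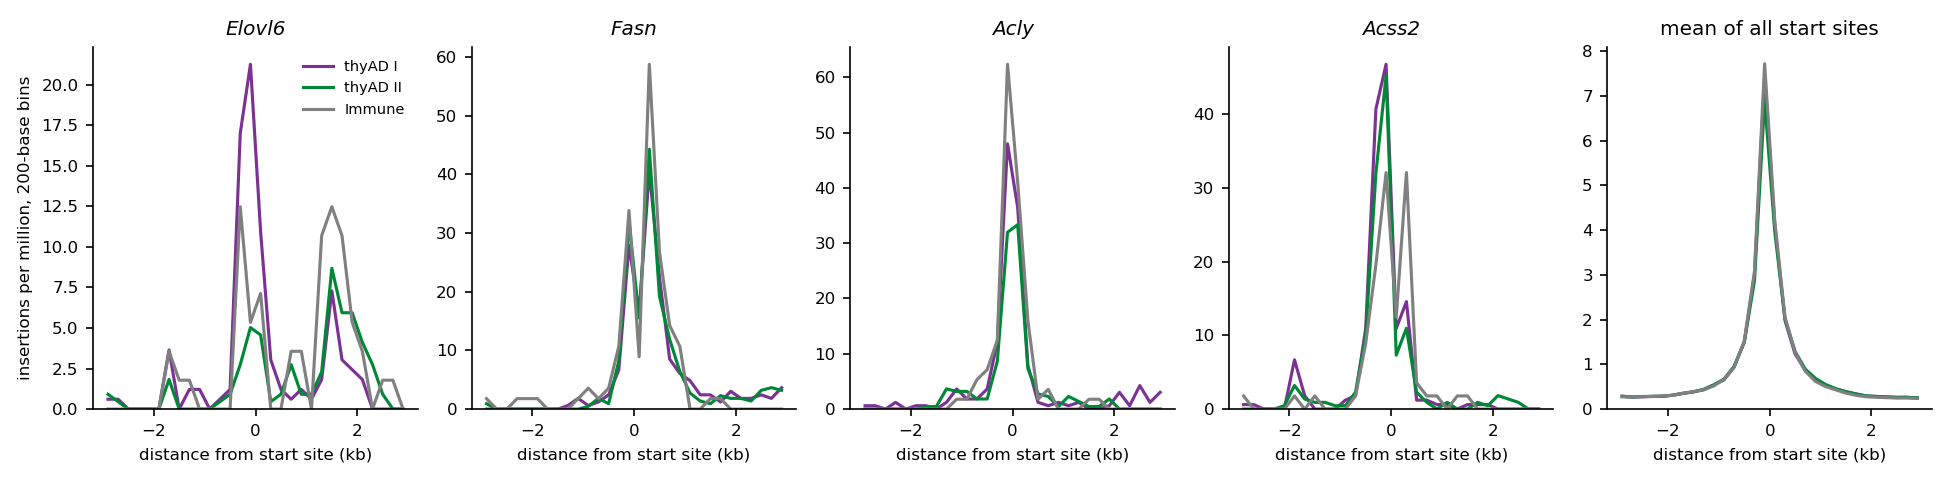
Insertion CPM in bins of 200 bases from 3 kb before to 3 kb after the start of Elovl6, Fasn, Acly and Acss2, and the mean of all starts, in thyAD I, thyAD II and Immune nuclei. The Elovl6 profile of thyAD I reaches 21.3 just before the start, where thyAD II has 5.02, and the Fasn profiles of the labels lie close together.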

How the data were processed

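The authors deposited unnormalized UMI counts for each gene in each barcode (cellranger 7.2.0, per the file headers), with the percent of mitochondrial UMIs and a label per nucleus. The UMI total in the authors' table equalled that of the matrix for 101 of 365 thymic and 789 of 1564 epigonadal nuclei and was up to 1.91% and 1.90% lower for the others, so the table may rest on another version of the matrix. The submitters' processing notes name Cell Ranger ARC 2.0.2, Seurat 5.1.0 and the build mm10. Fragments of the chromatin library were deposited by the authors as counts per position and barcode. For the treatment of introns, nothing is given in the sources used here. The copy of the 6-month table used here stopped inside row 318, so 317 nuclei were read, and the RNA of that library was not analysed here. Every labelled nucleus was classed a singlet by the authors, and doublets were not treated further.

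For each label of a library the UMIs of its nuclei were added up and divided by those of all nuclear-encoded genes (CPM). Ratios used 0.5 UMI added to each sum. Intervals were exact Poisson for levels, exact binomial for ratios and Clopper-Pearson for shares, at 95%, and cover counting error only. The background of a comparison was every gene with at least 20 UMIs over both sides, and past 2-fold means above 2-fold in CPM. A count of 0 was given a limit of 3 counts, per sum or per group of nuclei. Folds from this limit leave out the counting error of the other side. Depth per label is given with the results. Nuclei were thinned to 500 UMIs for shares of nuclei. Spans were known for 26617 of 32272 nuclear-encoded genes and stand in for intron length. Start windows reached 1 kb either side, and gene bodies had 2 kb added on each side. Promoters came from RefSeq.

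Named were all 10 genes, the 2 genes with the most UMIs of each pathway list, fixed markers, and the 3 genes most like Fasn, Scd1, Acaca and Acly. The members, lists and rules were chosen with earlier results of these data known. Hsd17b8 was not matched. Alternatives were TMM scaling (edgeR 4.0.16), median-of-ratios scaling (DESeq2 1.42.0), equal weight per nucleus, deeper nuclei, a pseudocount of 5, a minimum of 20 UMIs per gene, subtraction of the unlabelled profile, other span limits, and for chromatin other windows, cut sites and scaling. Leaving out the richest barcode of each label, leaving Malat1, Gm42418 and AY036118 out of the totals, and ratios relative to the span class were chosen after seeing the data. The scripts were tested on simulated data and ran on python 3.11.15, numpy 2.4.6, pandas 2.3.3, scipy 1.17.1, matplotlib 3.10.9 and R 4.3.3.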

Additional observations from a re-analysis of the deposited data

How the results depend on the processing

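Of 80 log2 ratios of single genes 27 changed sign under at least 1 alternative, 22 of them with a counting interval over 0, among these Me1 and Scd2 in Ad I and Fasn and Scd2 in thymic Ad IIa over Ad I. The other 5 had intervals clear of 0. With equal weight per nucleus Acaca turned from -0.45 to 0.25 over all labelled nuclei, thymic over epigonadal, and from -0.27 to 0.55 in labelled over unlabelled thymic barcodes. With labelled nuclei of at least 1000 UMIs Fasn turned from 0.22 to -0.30 in labelled over unlabelled epigonadal barcodes, and the median of the 10 genes there moved from 0.15 to -0.17. Relative to the median of genes of the same span, chosen after seeing the data, Acaca turned to 1.10 and Acacb to 0.21 in epigonadal Ad IIc over Ad I, and the median of the long genes moved from -0.02 to 1.58. The cause was not tested. Of the medians of whole comparisons 97 others stayed between the medians of the genes' lower and upper counting bounds. This range is wide (-0.87 to 1.20 in thymic over epigonadal Ad I) and is not a counting interval of the median. Of the values of single genes 685 stayed within their counting interval and 52 moved. The minimum of 20 UMIs leaves single-gene values unchanged, so that alternative adds to the 685 by construction. The median of the 10 genes ran from 0.05 to 0.72 in thymic over epigonadal Ad I, from -1.25 to -0.79 over all labelled nuclei and from -1.62 to -0.87 in Ad IIa over the alternatives run. In Ad I, Fasn ran from -3.52 to -1.14, Scd1 from -1.45 to -0.58, Acaca from 0.54 to 1.14, Acss2 from 1.66 to 2.50 and Me1 from -0.21 to 0.84. No paired analysis was possible because each group was 1 library. Unlabelled barcodes under 500 UMIs were not run for the epigonadal library, which had 0 of them. Thymic Ad I rests on 84 shallow nuclei, and differences in Acly, Acacb, Me1 and Scd2 were not resolved there.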
